A study of Mus musculus with 18 samples.

Results

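The 9 genes described here are C1qa, Apoe, Mertk, Axl, Adgre1, Lyz2, Cd68, Cd36 and Mrc1, which are used as macrophage genes or act in the uptake of dying cells. They were chosen by symbol, each matched to 1 Ensembl identifier, and they are 9 of the 54232 genes listed in the count table and 9 of the 17074 genes tested. All 9 passed the filter on low counts. The RNA-seq libraries came from DCs of C57BL/6J mice labelled CD11a KO, a genotype that all 18 libraries share, and no wild-type library was analysed here. CD11a is the integrin chain encoded by Itgal. CD11b+ DCs, CD103+ DCs and DCs positive for both (double-positive, DP) were each taken from the small intestinal lamina propria (LP) and from the intestinal lymph nodes (LN), which gave 6 groups of 3 libraries. The age of the mice, the kind of knockout and whether mice were infected or at steady state are not given for these libraries, and the labels do not say whether replicates were separate animals. The sex-linked genes given below show that replicate 3 of LN CD11b+ and of LN DP DCs held cells of male mice that replicates 1 and 2 hardly held, and for the other groups p-values measure the spread between these libraries, which may be technical.

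Clearance of dying cells, or efferocytosis, runs from recognition of the dying cell to digestion of what was taken up. Soluble proteins such as C1q coat the dying cell or bridge it to a receptor, receptor tyrosine kinases such as MERTK and AXL bind the bridging proteins GAS6 and protein S, and scavenger receptors such as CD36 bind lipids on its surface. The cargo is broken down in lysosomes, and its cholesterol is passed on by transporters and by apolipoprotein E. In the intestine, macrophages carry much of this programme, but CD103+ DCs are also known to take up dying epithelial cells and to carry their antigens to the lymph node. Macrophages and CD11b+ DCs share many surface proteins. In the DC sort described for the study, cells with CD64, the macrophage Fc receptor encoded by Fcgr1, were gated out, although the labels do not say that these 18 libraries were sorted in the same way.

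Between 23574292 and 46901985 reads per library were assigned to genes. The sum of 5 DC markers lay between 18950 and 77680 CPM (reads scaled to library size) in every library. Most of it was Cd74, at 43060 of 68990 CPM in LP CD11b+ and 14380 of 19250 CPM in LN CD103+ DCs. The sum does not measure how many macrophages a library held. Flt3, another of the 5, had means from 351 CPM in LP CD11b+ to 1032 CPM in LN CD103+ DCs. Itgal was read in all 18 libraries, at 6.45 to 26.7 CPM. The sum of 7 macrophage markers (among them Fcgr1, Csf1r, Cx3cr1, C1qb and Cd163) differed widely between groups. It was 973 to 1851 CPM in LP CD11b+ DCs, 376 to 666 in LN CD11b+ DCs, 224 to 237 in LP DP DCs, 80.5 to 97.4 in LN DP DCs, 12.6 to 29.3 in LP CD103+ DCs and 8.20 to 12.4 in LN CD103+ DCs, where Fcgr1 was at 0. Replicate 3 of LP CD11b+ DCs stood apart with 1851 CPM against 1142 and 973 in the other 2 libraries, so results that rest on it are given with and without it. T cell markers summed to 3.64 to 18.4 CPM in LP libraries and 202 to 482 CPM in LN libraries. Their mean sum was 28.6-fold higher in LN than in LP for CD11b+, 63.8-fold for CD103+ and 36.5-fold for DP DCs. The mean sum of B cell markers was 3.45-fold, 2.22-fold and 5.80-fold higher in LN for these subsets. The male gene Ddx3y was read at 50.04 to 74.4 CPM in all 9 LP libraries, whereas Xist, read in female cells, marked all 9 LN libraries, and replicate 3 of LN CD11b+ and of LN DP DCs carried both. The tissues therefore differ in the sex of the mice as well, and for CD103+ DCs tissue and sex cannot be told apart. In CD11b+ and DP DCs tissue was not separated from sex either, since no fit held a term for sex. Tests of whether the tissue difference depends on the subset share this limit. The part of other cell types in the results below was not tested, and in bulk libraries fewer cells of a type and less RNA per cell cannot be told apart.

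The groups in which the genes were most abundant differed from gene to gene, as the plot of CPM by library shows. LP CD11b+ DCs had the highest mean of 5 genes (C1qa, Apoe, Mertk, Lyz2 and Mrc1), LP DP DCs of 2 (Adgre1 and Cd68), LN CD11b+ DCs of 1 (Axl) and LP CD103+ DCs of 1 (Cd36). LN CD103+ DCs had the lowest mean of 5 genes. Ordered by level, the 6 groups gave 5 neighbouring pairs per gene, and 20 of all 45 pairs differed at an adjusted p under 0.01 and a fold change over 2, the limits used throughout. Of all genes, 21.2% passed these limits between LN CD11b+ and LP DP, 26.1% between LN CD11b+ and LP CD103+, 30.2% between LN DP and LP CD11b+, 33.8% between LN DP and LP CD103+, 36.3% between LN CD103+ and LP CD11b+ and 36.9% between LN CD103+ and LP DP DCs, and shares for the other pairs stand with their comparisons. Per kilobase of exon, Lyz2 was the most abundant of the 9 in LP CD11b+ DCs, at a mean of 7538 RPKM, which scales reads by exon length and library size, against 607 for Cd68, 518 for Apoe, 188 for C1qa and 0.672 for Mertk.

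**Figure D1:**
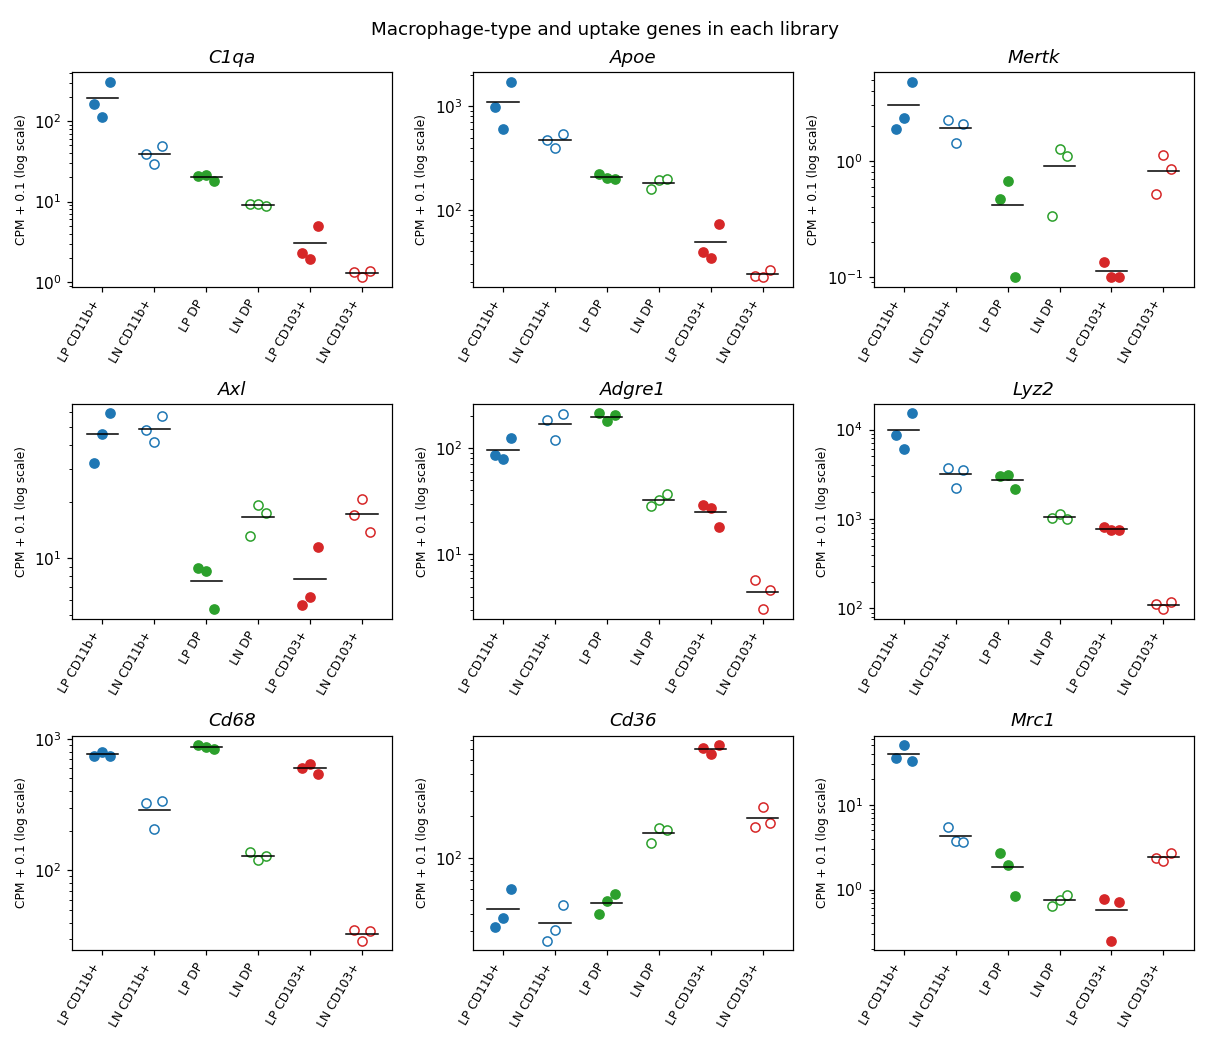
Each panel shows 1 gene, with the 6 groups on the x axis and CPM + 0.1 on a log-scaled y axis; points are single libraries (filled LP, open LN) and bars are group means. C1qa, Apoe and Lyz2 step down from CD11b+ to DP to CD103+ DCs, Cd68 splits by tissue, and Cd36 is highest in CD103+ DCs, at 554 to 637 CPM in LP.

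C1qa encodes the A chain of C1q, the complement protein that coats dying cells (ENSMUSG00000036887, GRCm38 chr4:136895917-136898803, minus strand). In LP its level was 163, 113 and 312 CPM in replicates 1, 2 and 3 of CD11b+ DCs, 20.7, 21.1 and 18.02 CPM in DP DCs and 2.19, 1.83 and 4.90 CPM in CD103+ DCs. In LN it was 39.3, 29.4 and 49.5 CPM in CD11b+ DCs, 9.14, 9.36 and 8.79 CPM in DP DCs and 1.24, 1.05 and 1.27 CPM in CD103+ DCs. No 2 groups overlapped among neighbours in this order, and the means ran from 196 CPM in LP CD11b+ to 1.19 CPM in LN CD103+ DCs, a ratio of 165. The steps from LN CD11b+ to LP DP (adjusted p = 0.018) and from LP CD103+ to LN CD103+ DCs (adjusted p = 0.022) did not pass the limits, while the other 3 did. C1qa took a steady share of the reads of the 3 C1q chains, 21.2% to 26.1% in the 13 libraries with at least 500 such reads.

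Apoe encodes apolipoprotein E, which carries cholesterol out of lipid-laden cells (ENSMUSG00000002985, chr7:19696109-19699188, minus strand). LP libraries gave 979, 605 and 1738 CPM in CD11b+ DCs, 220, 202 and 199 CPM in DP DCs and 39.1, 34.4 and 72.2 CPM in CD103+ DCs. LN libraries gave 475.5, 395 and 542 CPM in CD11b+ DCs, 159, 194 and 197 CPM in DP DCs and 22.7, 22.4 and 25.9 CPM in CD103+ DCs. Apoe followed the order of C1qa, and replicate 3 was the highest library for both genes in LP CD11b+ and in LP CD103+ DCs. Of the neighbouring groups only LP DP and LN DP DCs did not differ by the limits (1.13-fold, adjusted p = 0.63), although their libraries did not overlap.

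Mertk encodes the receptor tyrosine kinase MERTK (ENSMUSG00000014361, chr2:128698956-128802894, plus strand), and its level was low in every group. In LP it was 1.80, 2.23 and 4.71 CPM in CD11b+ DCs, 0.373, 0.576 and 0 CPM in DP DCs and 0.0354, 0 and 0 CPM in CD103+ DCs, where the 3 libraries together held 1 read. LN levels were 2.13, 1.33 and 1.97 CPM in CD11b+ DCs, 0.234, 1.15 and 0.998 CPM in DP DCs and 0.415, 1.01 and 0.745 CPM in CD103+ DCs. None of the 5 neighbouring pairs differed by the limits, and 4 of them overlapped.

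Axl encodes AXL, a receptor of the same family (ENSMUSG00000002602, chr7:25757273-25788705, minus strand). LP levels were 31.9, 45.7 and 58.8 CPM in CD11b+ DCs, 8.79, 8.41 and 5.28 CPM in DP DCs and 5.52, 6.11 and 11.3 CPM in CD103+ DCs. In LN it was 48.1, 41.2 and 57.3 CPM in CD11b+ DCs, 13.1, 19.1 and 17.3 CPM in DP DCs and 16.9, 20.5 and 13.7 CPM in CD103+ DCs. The 6 groups formed 3 levels of 2 groups each. CD11b+ DCs of both tissues overlapped at the top (adjusted p = 0.80), LN CD103+ and LN DP DCs in the middle (adjusted p = 0.93), and LP CD103+ and LP DP DCs at the bottom (adjusted p = 0.98), and the steps between the levels passed the limits.

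Cd36 encodes a scavenger receptor for oxidised lipids and dying cells (ENSMUSG00000002944, chr5:17781690-17888801, minus strand), and it was the gene highest in CD103+ DCs. In LP Cd36 was read at 611, 554 and 637 CPM in CD103+ DCs, 39.8, 49.0 and 54.8 CPM in DP DCs and 31.8, 37.0 and 59.8 CPM in CD11b+ DCs. In LN Cd36 was read at 167, 232 and 178 CPM in CD103+ DCs, 129, 163 and 158 CPM in DP DCs and 25.6, 30.6 and 45.9 CPM in CD11b+ DCs. CD103+ DCs were above CD11b+ DCs in both tissues without overlap, and DP DCs lay with CD11b+ DCs in LP (adjusted p = 0.74) and with CD103+ DCs in LN (adjusted p = 0.27).

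Mrc1 encodes the mannose receptor CD206, a lectin of tissue macrophages (ENSMUSG00000026712, chr2:14229392-14332057, plus strand). Its LP levels were 35.2, 50.1 and 32.7 CPM in CD11b+ DCs, 2.61, 1.83 and 0.750 CPM in DP DCs and 0.672, 0.151 and 0.612 CPM in CD103+ DCs. Its LN levels were 5.30, 3.64 and 3.56 CPM in CD11b+ DCs, 0.547, 0.663 and 0.760 CPM in DP DCs and 2.28, 2.07 and 2.63 CPM in CD103+ DCs. LP CD11b+ DCs alone were above 10 CPM, and the step from them to LN CD11b+ DCs, the next group, was the only 1 of 5 to pass the limits. Replicate 3, the highest LP CD11b+ library for C1qa, Apoe and Lyz2, was the lowest of the 3 for Mrc1.

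Adgre1 encodes F4/80, a surface receptor used to mark mouse macrophages (ENSMUSG00000004730, chr17:57358691-57483527, plus strand). LP libraries gave 84.7, 79.1 and 123 CPM in CD11b+ DCs, 210, 177 and 201 CPM in DP DCs and 29.0, 27.1 and 18.1 CPM in CD103+ DCs. LN libraries gave 181, 119 and 207 CPM in CD11b+ DCs, 28.4, 32.1 and 37.0 CPM in DP DCs and 5.60, 2.99 and 4.52 CPM in CD103+ DCs. LP DP and LN CD11b+ DCs overlapped at the top (adjusted p = 0.45), and LN CD103+ DCs were lowest with no overlap.

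Lyz2 encodes the lysozyme of myeloid cells (ENSMUSG00000069516, chr10:117277331-117282321, minus strand). In LP Lyz2 was read at 8613, 6034 and 15110 CPM in CD11b+ DCs, 3007, 3092 and 2152 CPM in DP DCs and 811, 759 and 756 CPM in CD103+ DCs. In LN Lyz2 was read at 3744, 2246 and 3553 CPM in CD11b+ DCs, 1017, 1123 and 997 CPM in DP DCs and 113, 99.1 and 119 CPM in CD103+ DCs. Each subset was higher in LP than in LN without overlap, and LN CD11b+ and LP DP DCs overlapped (adjusted p = 0.52). Lyz2 has a near-identical neighbour, Lyz1, and reads that fit both are lost when only unique alignments are counted, so both counts are uncertain. Lyz1 was read at 680 to 1645 CPM in LP CD11b+ DCs and, unlike Lyz2, was higher in LN than in LP DP DCs (log2 fold change 1.10 ± 0.27 SE, adjusted p = 0.0024).

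Cd68 encodes the lysosomal membrane protein CD68, or macrosialin (ENSMUSG00000018774, chr11:69664213-69666153, minus strand). In LP Cd68 was read at 740, 802 and 747 CPM in CD11b+ DCs, 894, 870 and 839 CPM in DP DCs and 599, 646 and 541 CPM in CD103+ DCs. In LN Cd68 was read at 323, 206 and 335 CPM in CD11b+ DCs, 137, 120 and 129 CPM in DP DCs and 34.8, 29.1 and 34.5 CPM in CD103+ DCs. All 9 LP libraries were above all 9 LN libraries. Within LP no pair of subsets differed by the limits, and the largest of these differences was 1.46-fold, DP over CD103+ DCs (adjusted p = 0.0051), whereas within LN each of the 3 steps between subsets passed.

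Promoter sequences are shown for the 3 patterns above, those of Lyz2 (highest in CD11b+ DCs), Cd68 (split by tissue) and Cd36 (highest in CD103+ DCs). They are the bases before the RefSeq transcription start (GRCm38.p6), on the gene's own strand, with any base of a GENCODE exon left out. They lie at chr10:117282322-117282522, chr11:69666171-69666420 and chr5:17835897-17836146, all on the minus strand. The Cd36 window lies inside the annotated span of the gene (chr5:17781690-17888801), not upstream of it. Which start these DCs used was not tested. Capitals mark a match to a searched motif.
Lyz2: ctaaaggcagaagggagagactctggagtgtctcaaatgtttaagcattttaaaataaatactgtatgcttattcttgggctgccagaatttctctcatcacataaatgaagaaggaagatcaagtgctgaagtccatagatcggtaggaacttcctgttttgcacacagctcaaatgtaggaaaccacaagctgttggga
Cd68: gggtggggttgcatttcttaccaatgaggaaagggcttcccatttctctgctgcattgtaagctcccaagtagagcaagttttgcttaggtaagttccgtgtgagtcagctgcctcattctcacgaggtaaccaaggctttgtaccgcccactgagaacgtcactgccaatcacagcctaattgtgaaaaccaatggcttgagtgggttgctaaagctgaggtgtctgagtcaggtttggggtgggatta
Cd36: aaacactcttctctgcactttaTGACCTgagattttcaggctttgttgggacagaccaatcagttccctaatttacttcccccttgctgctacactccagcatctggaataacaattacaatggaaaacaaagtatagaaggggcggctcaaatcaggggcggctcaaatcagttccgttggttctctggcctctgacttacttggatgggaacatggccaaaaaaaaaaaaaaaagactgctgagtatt
RefSeq promoter windows were matched for 7 of the 9 genes (9 windows, 3 of them of Apoe), all but C1qa and Adgre1. The 250 bases before each start were searched on both strands for GAGGAAGT (PU.1 type), TGCTGAC (MAF type), CACGTG (E-box) and TGACCT (nuclear receptor type). The only match was 1 TGACCT, in the window of Cd36. Over all 32851 windows in the table, 2.44% held GAGGAAGT, 3.81% TGCTGAC, 6.02% CACGTG and 14.02% TGACCT. A match or its absence describes these letters only.

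The comparison of LN with LP asked how the 9 genes differ between tissues within a subset. In CD11b+ DCs 5 genes were lower in LN and none was higher, where 15.2% of all genes were called (4.93% lower and 10.3% higher). Mrc1 fell most (log2 fold change -3.24 ± 0.41 SE, adjusted p = 1.2e-05), followed by C1qa (-2.31 ± 0.32, adjusted p = 3.1e-05), Lyz2 (-1.64 ± 0.26, adjusted p = 9.6e-05), Cd68 (-1.41 ± 0.14, adjusted p = 8.1e-07) and Apoe (-1.24 ± 0.30, adjusted p = 0.0034). Adgre1 had 0.82 ± 0.22 (adjusted p = 0.0080, under the fold limit), and Axl (0.10), Cd36 (-0.33) and Mertk (-0.69) did not pass, with overlapping libraries. The median over the 9 genes was -1.24, against 0.03 over all genes tested. Without replicate 3 of LP CD11b+ DCs, C1qa was at -1.81, Lyz2 at -1.20 and Mrc1 at -3.35, all called, Apoe at -0.75 was no longer called (adjusted p = 0.027), and Adgre1 at 1.04 was called higher (adjusted p = 0.0030). Apoe also lost its call without replicate 1 or 2 of LN CD11b+ DCs (adjusted p = 0.012 and 0.021), and Adgre1 gained one without replicate 2 of LN CD11b+ DCs (1.02). The summed macrophage markers moved the same way, with a mean 2.41-fold higher in LP and 4 of 7 called lower in LN. Those called included C1qb and C1qc, the other chains of C1q, while Cx3cr1 had 44.3 CPM in LP and 57.9 CPM in LN. The summed markers of epithelium were 8.80-fold higher in LP, with 4 of 5 called lower in LN. Most of that sum was Epcam, at 210 of 257 CPM in LP. Markers of the subsets themselves were counted too. Of 4 marker genes of the CD103+ type, 2 were called higher in LN CD11b+ DCs and 1 lower. Of 3 of the CD11b+ type, 1 was called lower. The part of any of these markers in the result was not tested.

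In CD103+ DCs 5 genes were lower in LN and 3 were higher, where 35.0% of all genes were called (15.1% lower and 19.8% higher). Cd68 fell most (-4.18 ± 0.16, adjusted p = 1.3e-12), an 18.1-fold difference, followed by Lyz2 (-2.81 ± 0.27, adjusted p = 1.1e-07), Adgre1 (-2.50 ± 0.26, adjusted p = 3.4e-07), Cd36 (-1.64 ± 0.23, adjusted p = 8e-06) and Apoe (-1.03 ± 0.31, adjusted p = 0.0079). Mrc1 (2.35 ± 0.46, adjusted p = 0.00030) and Axl (1.16 ± 0.29, adjusted p = 0.0021) rose. Mertk was also called higher (adjusted p = 0.00063), from 1 read to 51 reads over the groups' 3 libraries, a ratio of 71.7 with an exact counting interval (95%) of 12.3 to 2886. The libraries of both tissues did not overlap for any of the 9 genes, as for 65.6% of all genes. C1qa did not pass (-1.27 ± 0.45, adjusted p = 0.022). With the replicate number as a block, C1qa was called (-1.23, adjusted p = 0.0092) and Apoe fell under the fold limit (-0.98, adjusted p = 0.0026). That block does not pair animals here, since the LP and LN mice of this subset differed in sex. Apoe was also lost without replicate 3 of LP CD103+ DCs (-0.66, adjusted p = 0.062), without any 1 LN CD103+ library, or without replicate 1 or 2 of LP DP DCs. Axl was lost without replicate 1 or 2 of LP CD103+ or replicate 2 of LN CD103+ DCs (0.98 to 1.00), and C1qa was called without replicate 2 or 3 of LP CD11b+ or replicate 2 of LP CD103+ DCs. The fitted log2 fold change of Mertk was 5.63 with all libraries, 7.37 without replicate 1 and 4.94 without replicate 2 of LP CD103+ DCs. The median over the 9 genes was -1.27, against 0.04 over all genes. The macrophage marker sum was at most 29.3 CPM in this subset and its mean was 2.05-fold higher in LP, with 2 of 7 called lower in LN. The mean of the epithelial sum was 2.59-fold higher in LP (2 of 5 called lower in LN), with Epcam at 47.4 of 66.4 CPM there. The monocyte and neutrophil marker sum was 29.4-fold higher in LN (1.17 and 34.4 CPM), with 1 of 5 called, Ly6c2. In LN CD103+ DCs S100a9 was at 0, S100a8 and Retnlg had 1 read each and Csf3r had 0.370 CPM. All 4 marker genes of the CD103+ type, among them Clec9a, were called lower in LN CD103+ DCs. Their sum was 7645 CPM in LP and 1788 CPM in LN. Of the 3 genes of the CD11b+ type, 2 were called higher in LN (sums of 11.05 CPM in LP and 42.0 CPM in LN). The part of these markers in the result was not tested.

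In DP DCs 4 genes were lower in LN and 2 were higher, where 32.1% of all genes were called (13.6% lower and 18.6% higher). Cd68 (-2.76 ± 0.15, adjusted p = 1e-10), Adgre1 (-2.59 ± 0.24, adjusted p = 7.8e-08), Lyz2 (-1.40 ± 0.26, adjusted p = 0.00017) and C1qa (-1.13 ± 0.33, adjusted p = 0.0074) fell. Cd36 rose (1.65 ± 0.23, adjusted p = 1e-05), as did Axl (1.14 ± 0.29, adjusted p = 0.0026). Apoe (-0.17), Mertk (1.31) and Mrc1 (-1.40, adjusted p = 0.013) did not pass. The call of C1qa was lost without any 1 of the 6 DP libraries (adjusted p 0.012 to 0.024), that of Axl without replicate 3 of LP DP or replicate 2 of LN DP DCs, and Mrc1 was called without replicate 2 of LP CD103+ or replicate 3 of LP DP DCs (-1.40 and -1.75). The median over the 9 genes was -1.13, against 0.07 over all genes. The macrophage marker sum was 2.64-fold higher in LP DP than in LN DP DCs, with 5 of 7 called lower in LN. The epithelial marker sum was 7.77-fold higher, with 3 of 5 called lower in LN. Nearly all of that sum was Epcam, at 452.5 of 470 CPM in LP DP DCs, where Epcam was higher than in LP CD11b+ DCs (210 CPM). Of the 4 genes of the CD103+ type, 3 were called higher in LN DP DCs and 1 lower. Of the 3 genes of the CD11b+ type, 2 were called lower in LN (sums of 568 CPM in LP and 205 CPM in LN). The part of any of these markers was not tested.

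**Figure D2:**
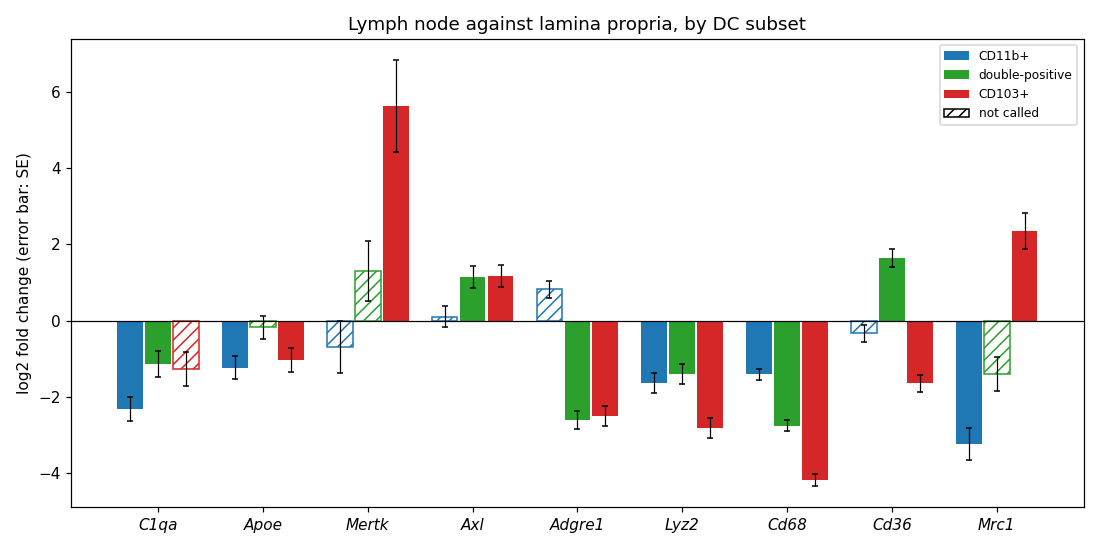
Log2 fold change of LN against LP (y axis) for each gene (x axis) in CD11b+, DP and CD103+ DCs, with bars for the fitted value and error bars for its SE; hatched bars were not called. Cd68 and Lyz2 are lower in LN in all 3 subsets, Cd36 falls in CD103+ DCs (-1.64) and rises in DP DCs (1.65), and Mrc1 falls in CD11b+ (-3.24) and rises in CD103+ DCs (2.35).

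Whether the tissue difference itself depended on the subset was tested with an F test over the 3 subsets (adjusted p under 0.01). It was called for 6 of the 9 genes, where 31.5% of all genes were called. Cd68 (adjusted p = 5.8e-08) was lower in LN in every subset, by 2.65-fold in CD11b+, 6.75-fold in DP and 18.1-fold in CD103+ DCs. For Adgre1 (adjusted p = 4e-07), Cd36 (adjusted p = 1.7e-06) and Mrc1 (adjusted p = 6.2e-06) the fitted differences had opposite signs between subsets. Lyz2 (adjusted p = 0.0082) and Mertk (adjusted p = 0.0054) were close to the threshold. Lyz2 lost its call without replicate 1 of LP CD11b+, replicate 3 of LN CD11b+ or any 1 of the 12 CD103+ and DP libraries, and Mertk without any 1 of 8 libraries, which were replicate 3 of LP CD11b+, the 3 of LN CD11b+, and replicates 2 and 3 of LP CD103+ and of LN CD103+ DCs. Both were also lost with the replicate number as a block within each tissue (adjusted p = 0.014 and 0.017). C1qa (adjusted p = 0.086), Apoe (0.095) and Axl (0.053) did not pass, though Axl did without replicate 3 of LP CD103+ DCs.

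The comparison of subsets asked how the genes differ between DCs of the same tissue. CD103+ DCs were lower than CD11b+ DCs for 7 genes in LP, where 15.7% of all genes were called (10.6% lower and 5.07% higher), and for 6 genes in LN, where 25.9% were (15.6% lower and 10.2% higher). Cd36 alone was higher, in both tissues. In LP, Mrc1 (-6.43 ± 0.50, adjusted p = 2.8e-08), C1qa (-6.09 ± 0.40, adjusted p = 3.8e-09) and Apoe (-4.52 ± 0.34, adjusted p = 1.9e-08) fell. Lyz2 (-3.68), Axl (-2.58) and Adgre1 (-1.94) also fell, and Cd36 rose 14.01-fold (3.81 ± 0.25, adjusted p = 3.7e-09). Mertk was called lower, from 260 reads to 1, a ratio of 297 with an interval of 52.9 to 11790, and its fitted log2 fold change was -7.64 with all libraries, -9.37 without replicate 1 and -6.96 without replicate 2 of LP CD103+ DCs. Cd68 did not pass in LP (-0.36, adjusted p = 0.051). In LN the largest falls were those of Adgre1 (-5.27 ± 0.28, adjusted p = 1.7e-10), C1qa (-5.04 ± 0.42, adjusted p = 3e-08), Lyz2 (-4.85 ± 0.30, adjusted p = 7.8e-10) and Apoe (-4.32 ± 0.34, adjusted p = 1.6e-08). Cd68 (-3.13) and Axl (-1.52) fell as well, Cd36 rose 5.65-fold (2.50 ± 0.24, adjusted p = 1.5e-07), and Mertk (-1.32) and Mrc1 (-0.84) did not pass. The medians over the 9 genes were -3.68 in LP and -3.13 in LN, against -0.04 and -0.13 over all genes. Without replicate 3 of LP CD11b+ DCs the LP values of C1qa, Apoe and Lyz2 were -5.58, -4.04 and -3.24, all called. The macrophage marker sum was 65.9-fold higher in CD11b+ than in CD103+ DCs of LP and 56.1-fold higher in LN. Sums of other markers moved the same way. Those of monocytes and neutrophils were 71.5-fold higher in CD11b+ DCs of LP and 2.62-fold in LN, and those of plasma cells 4.37-fold and 4.85-fold. In LN 4 of the 5 monocyte and neutrophil genes were called lower in CD103+ DCs (list median -7.35), all but Ly6c2. The part of these markers in the differences was not tested.

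DP DCs lay between the single-positive subsets for C1qa, Apoe and Lyz2 in both tissues. Against CD11b+ DCs, 5 genes were lower and 1 higher in LP, where 4.81% of all genes were called (3.67% lower and 1.14% higher). In LN 7 were lower and 1 higher, where 16.7% of all genes were called (9.82% lower and 6.92% higher). In LP, Mrc1 (-4.51 ± 0.44, adjusted p = 4.8e-06), C1qa (-3.30), Axl (-2.60), Apoe (-2.42) and Lyz2 (-1.85) fell, and Adgre1 rose (1.04 ± 0.22, adjusted p = 0.0047). In LN, Mrc1 (-2.66), Adgre1 (-2.38), C1qa (-2.11), Lyz2 (-1.61), Axl (-1.57), Apoe (-1.36) and Cd68 (-1.16) fell, and Cd36 rose (2.14 ± 0.23, adjusted p = 1.5e-06). Mertk passed in neither tissue (-3.18, adjusted p = 0.011, in LP), and Cd36 (0.16) and Cd68 (0.19) did not pass in LP. The LP call of Adgre1 was lost without replicate 1 or 2 of LP CD11b+ or replicate 1 or 3 of LP DP DCs (0.92 to 1.02), and Mertk gained one without replicate 1 of LN DP DCs. Without replicate 3 of LP CD11b+ DCs, C1qa (-2.79), Apoe (-1.94), Lyz2 (-1.41) and Adgre1 (1.26) stayed called. The macrophage marker sum was 5.71-fold higher in CD11b+ than in DP DCs of LP and 6.25-fold higher in LN. The monocyte and neutrophil sum was 9.37-fold and 3.41-fold higher, and the plasma cell sum 6.04-fold and 3.68-fold higher, and the part of these markers was not tested.

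Against CD103+ DCs, DP DCs were higher for 5 genes and lower for 1 in each tissue, where 13.6% of all genes were called in LP (8.1% higher and 5.52% lower) and 6.53% in LN (4.69% higher and 1.84% lower). In LP, Adgre1 (2.98), C1qa (2.80), Apoe (2.10), Mrc1 (1.92) and Lyz2 (1.83) were higher and Cd36 was lower (-3.65 ± 0.25, adjusted p = 5.6e-09). In LN, Lyz2 (3.24), Apoe (2.96), C1qa (2.93), Adgre1 (2.89) and Cd68 (1.97) were higher and Mrc1 was lower (-1.82 ± 0.45, adjusted p = 0.0067). The medians over the 9 genes were 1.92 and 1.97, against 0.01 over all genes in both tissues. Axl was close to 0 in both (-0.02 in LP and -0.05 in LN, with a sign that changed with the setting), Mertk passed in neither (4.46, adjusted p = 0.012, in LP), and Cd36 did not pass in LN (-0.36). Mrc1 lost its LP call without replicate 2 of LP CD103+ or replicate 1 or 2 of LP DP DCs, and its LN call without any 1 of the 6 libraries compared (adjusted p 0.013 to 0.034). Mertk was called in LP without replicate 3 of LP DP or replicate 1 of LN DP DCs. The macrophage marker sum was 11.5-fold higher in DP than in CD103+ DCs of LP and 8.98-fold higher in LN. In each tissue 6 of the 7 were called higher. The monocyte and neutrophil sum was 7.63-fold higher in DP DCs of LP and 1.30-fold lower in those of LN. The part of these markers was not tested. Comparisons of the same tissue share libraries, so their values are not independent of each other.

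**Figure D3:**
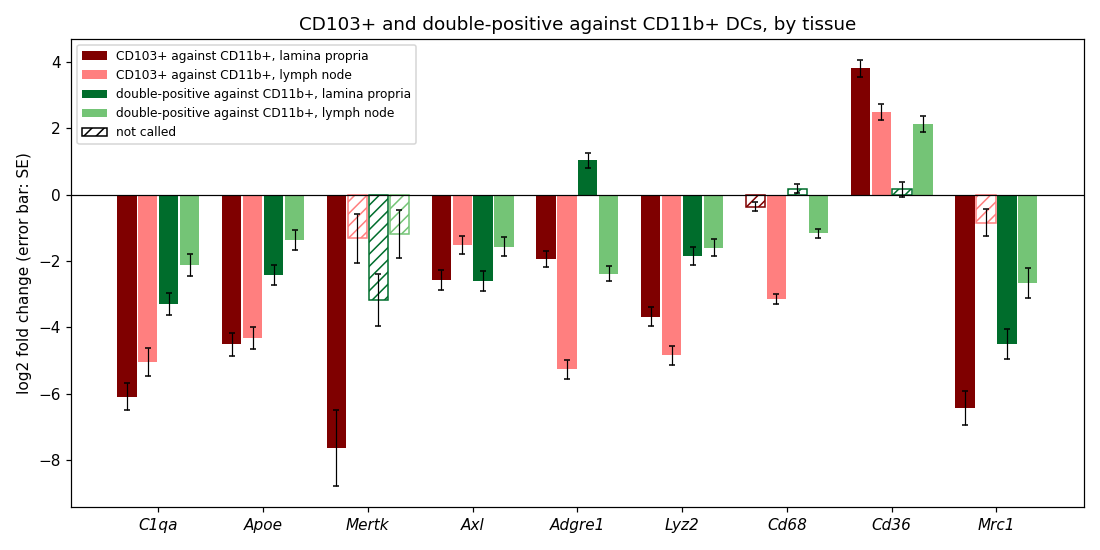
Log2 fold change (y axis) of CD103+ and of DP DCs against CD11b+ DCs for each gene (x axis), in LP (dark) and LN (light), with bars for the fitted value and error bars for its SE; hatched bars were not called. Most bars point down, Cd36 is called higher in 3 of the 4 contrasts, and Adgre1 in DP DCs is higher in LP (1.04) and lower in LN (-2.38).

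How far the genes moved together was described by Pearson's r of log2 CPM, over the means of the 6 groups and, apart from these, over the deviations of the 18 libraries from their group means. Points of a group share a sort and a tissue, and libraries share depth and scaling. Over group means the median r of the 36 gene pairs was 0.60, with 4 pairs over 0.9 and 10 under 0. The 4 pairs were C1qa with Apoe (0.99), C1qa with Lyz2 (0.95), Apoe with Lyz2 (0.94) and Mertk with Axl (0.93). Cd36 was negative with all 8 other genes (-0.81 to -0.29), and the remaining 2 negative pairs were Cd68 with Mertk (-0.19) and with Axl (-0.11). Within groups the median r was 0.27. C1qa and Apoe kept 0.96, and 0.94 over the 15 libraries outside LP CD11b+ DCs. C1qa with Lyz2 went from 0.69 to 0.38 and Apoe with Lyz2 from 0.71 to 0.28 without the LP CD11b+ group, while Lyz2 with Cd68 went from 0.39 to 0.76.

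**Figure D4:**
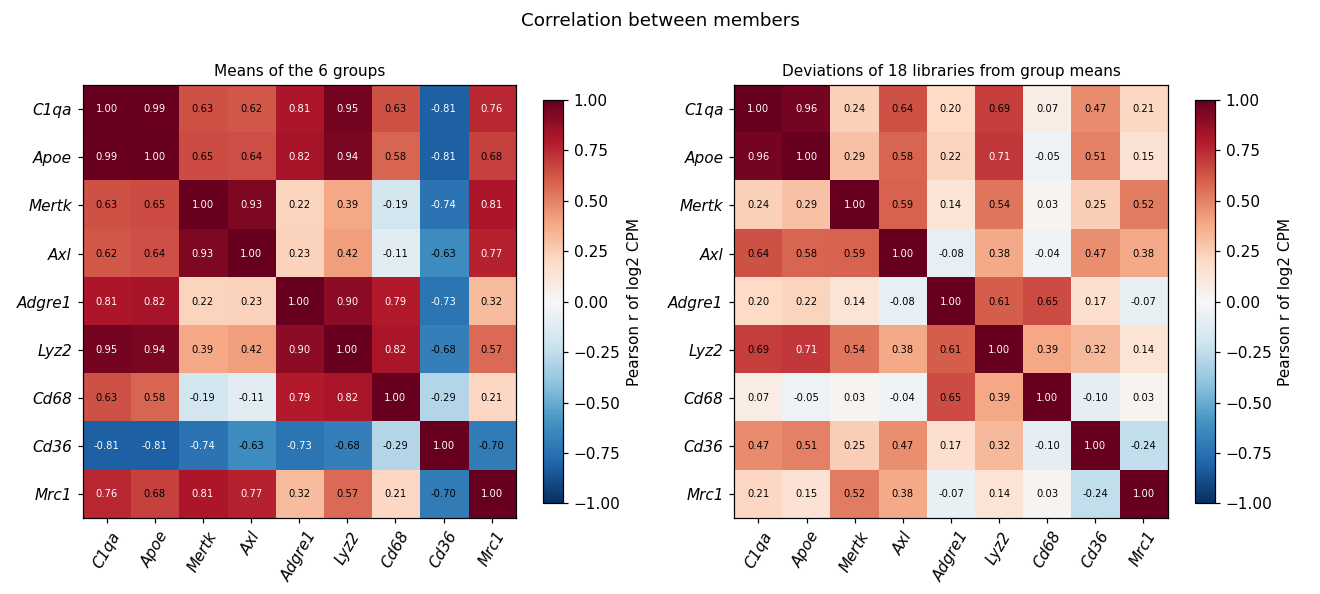
Pearson's r of log2 CPM between each pair of the 9 genes, over the means of the 6 groups (left) and over the deviations of 18 libraries from their group means (right); red is positive and blue negative. C1qa and Apoe are close to 1 in both panels (0.99 and 0.96), whereas Cd36 is negative with every other gene on the left and not on the right.

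The genes most alike each of the 9 were taken from 9916 genes with a mean of at least 10 CPM in a group, by r over the 18 libraries. C1qa was most like C1qb (0.998) and C1qc (0.997), the other chains of C1q, and Apoe (0.986). Apoe was in turn like C1qa and C1qb (0.979). Adgre1 was most like Ffar2 (0.984), a receptor for short-chain fatty acids, Ptger3 (0.979) and I830077J02Rik (0.976). Cd68 was most like H2-DMa (0.992), which loads peptides onto MHC class II, Hdac9 (0.991) and 5031439G07Rik (0.991). Cd36 was most like Gusb (0.980), a lysosomal enzyme, Txndc15 (0.977) and Rab32 (0.958). Lyz2 was most like Adamdec1 (0.965), Snx18 (0.964) and Igsf6 (0.962), and Axl like Lgals3bp (0.9503), Abcb1b (0.938) and Ier3 (0.920). Mertk was most like Mapkapk3 (0.922), Ccl9 (0.914) and Emp3 (0.899), and Mrc1 like the chemokine Ccl6 (0.947), Aaed1 (0.842) and the scavenger receptor Cd163 (0.840). These are the highest of many correlations and describe likeness across these libraries only.

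Other genes of the pathway were counted from 5 lists, none of which holds any of the 9, and some genes, such as C1qb and Timd4, stand in more than 1 list. For LN against LP, their counts stand beside 15.2% of all genes called in CD11b+, 35.0% in CD103+ and 32.1% in DP DCs, and their medians beside 0.03, 0.04 and 0.07 over all genes, and a count near these shares is no result about a list. Of 15 macrophage identity genes, 13 were tested, all but Vsig4 and Folr2. Between tissues, 7 fell and 3 rose in LN in CD11b+ DCs, 4 fell and 2 rose in CD103+ DCs, and 8 fell and 2 rose in DP DCs. In CD11b+ DCs the largest falls were those of the endocytic adaptor Dab2 (132 to 5.93 CPM, log2 fold change -4.47 ± 0.35, adjusted p = 7e-08) and of Cd163 (21.1 to 1.81 CPM, -3.54). The rises there were those of Siglec1 (0.495 to 20.5 CPM, 5.36 ± 0.53, adjusted p = 2e-06), the sialic acid receptor CD169 of lymph node macrophages, of the transcription factor Maf (3.002) and of Timd4 (1.69), a receptor for phosphatidylserine. Siglec1 and Maf also rose in LN in the other 2 subsets. Siglec1 was at 0 in LP CD103+ DCs and at least 7.50-fold higher in LN CD103+ DCs, against a floor of 3 reads over the group. Between subsets, 13 of 13 fell in CD103+ against CD11b+ DCs in LP and 12 in LN, beside 15.7% and 25.9% of all genes called. Csf1r, the receptor for the macrophage growth factor, was at 572 CPM in LP CD11b+, 142 in LP DP and 4.97 in LP CD103+ DCs. The list's median was -1.18, -1.03 and -1.23 for LN against LP in CD11b+, CD103+ and DP DCs.

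Of the 8 bridging ligands and opsonins, 5 fell and 2 rose in LN in CD11b+ DCs, 3 fell and 3 rose in CD103+ DCs, and 4 fell and 2 rose in DP DCs (15.2%, 35.0% and 32.1% of all genes were called). The list's medians were -1.93, -1.11 and -1.22. Both ligands of the MERTK and AXL family were among them. Pros1, which encodes protein S, fell in LN in each subset (34.2 to 8.26 CPM in CD11b+, 4.10 to 0.928 in CD103+ and 21.7 to 3.53 in DP DCs). Gas6 fell in CD11b+ DCs (3.35 to 0.404 CPM, -3.04 ± 0.75, adjusted p = 0.0041) and passed in neither other subset (0.914 to 0.467 CPM in CD103+ and 1.48 to 0.292 CPM in DP DCs). Mfge8, which bridges phosphatidylserine to integrins, rose in each subset, from 38.5 to 259 CPM in CD103+ DCs (2.76 ± 0.21, adjusted p = 4.7e-09), from 23.8 to 148 CPM in DP DCs and from 32.9 to 81.3 CPM in CD11b+ DCs. The complement gene C3 rose in each subset too (3.28, 5.03 and 4.87 in CD11b+, CD103+ and DP DCs).

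Of 13 uptake receptors, 12 were tested, and 4 rose and 1 fell in LN in CD11b+ DCs, 5 rose and 4 fell in CD103+ DCs, and 7 rose and 1 fell in DP DCs (15.2%, 35.0% and 32.1% of all genes were called). The list's medians were 0.88, 0.32 and 2.38. Tyro3, the remaining receptor of the MERTK and AXL family, was low throughout. It rose in CD103+ DCs from 0.109 to 2.31 CPM (adjusted p = 0.0016) and in DP DCs from 0 to 1.05 CPM, at least 31.0-fold, and did not pass in CD11b+ DCs (0.117 to 0.669 CPM, adjusted p = 0.068). Clec9a, a receptor of CD103+ DCs for dead-cell actin, fell in LN CD103+ DCs (258 to 40.2 CPM, -2.69 ± 0.22, adjusted p = 1.8e-08), rose in DP DCs (log2 fold change 1.71 ± 0.24, adjusted p = 8.7e-06) and did not pass in CD11b+ DCs (0.40). Scarf1, a C1q receptor, rose in each subset, from 0.485 to 9.81 CPM in CD103+, from 0.607 to 2.79 CPM in CD11b+ and from 0.128 to 3.75 CPM in DP DCs.

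Of 10 scavenger receptors and related genes, 3 rose and 4 fell in LN in CD11b+ DCs, 2 rose and 2 fell in CD103+ DCs, and 3 rose and 3 fell in DP DCs, where 15.2%, 35.0% and 32.1% of all genes were called. The share called in CD103+ DCs was thus close to that over all genes. Marco, a scavenger receptor of lymph node and splenic macrophages, rose in each subset. In CD11b+ DCs it went from 1 read to 4326 reads (46.4 CPM in LN), a ratio of 4010 with an interval of 719 to 158400. Cd163, the haemoglobin scavenger receptor, fell in CD11b+ and DP DCs (-3.54 and -4.13). Of the 16 engulfment and cargo genes, 2 rose and 1 fell in CD11b+ DCs, 4 rose and 5 fell in CD103+ DCs, and 3 rose and 3 fell in DP DCs. Against the same 15.2%, 35.0% and 32.1% of all genes, the shares in CD11b+ and DP DCs were close to the background. Abcg1, a cholesterol exporter, rose in each subset, from 8.95 to 286 CPM in CD103+ DCs (5.00 ± 0.26, adjusted p = 7e-11), from 10.4 to 165 CPM in DP DCs and from 23.9 to 61.5 CPM in CD11b+ DCs. Lipa, the lysosomal acid lipase, fell in each subset (-1.06, -1.99 and -2.04 in CD11b+, CD103+ and DP DCs). Pparg, a lipid-sensing nuclear receptor, fell in CD103+ DCs (19.1 to 0.935 CPM, -4.34 ± 0.51, adjusted p = 1.3e-06) and within LP was higher in CD103+ than in CD11b+ DCs (2.66), as Cd36 was. Medians of these 2 lists for LN against LP were -1.28, 0.02 and -1.04 for scavenger receptors and -0.09, -0.12 and 0.10 for engulfment and cargo genes, in CD11b+, CD103+ and DP DCs.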

How the data were processed

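Raw counts of reads per Ensembl gene were used as the authors deposited them, without normalization, for 18 SMART-seq v4 libraries. The submitters' processing notes name STAR 2.6, FastQC 0.11.7 and GRCm38. The study's methods give unique alignments and counting without regard to strand for its own DC libraries, so reads of near-identical genes are lost and antisense reads are not separated. No exon of the 9 genes overlapped another gene. Symbols (54079 of 54232 genes matched) and positions came from GENCODE vM21, and promoter windows from RefSeq (GRCm38.p6).

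Counts were normalized by TMM in edgeR 4.0.16 (R 4.3.3), filtered with filterByExpr and fitted over all 18 libraries with a mean per group. Quasi-likelihood tests were adjusted by Benjamini-Hochberg over 17074 genes, and a gene was called at an adjusted p under 0.01 and an absolute fold change over 2. All adjusted p-values printed are from this test unless another is named. SEs were derived from the F statistic. Counts per 1e6 reads (CPM) used TMM library sizes, and RPKM used merged exon length. Log2 CPM for correlations had a prior count of 2. Counting intervals are exact binomial and cover counting error only, since the reads carry no molecular identifiers.

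The 9 genes and all lists were chosen with earlier results of these data known. Named pathway genes were the largest changes among called genes of a list (at most 4 per list and comparison), the ligands Gas6, Pros1 and Mfge8 and the receptor Tyro3. Lyz1, the sex-linked genes and a few others outside this rule were named after their values were seen. The values of 1 gene are not reported here. Replicates differed by more than sampling noise (chi-square per gene 14.9 to 64.9, for genes reaching 50 counts in a pair). Same-numbered libraries deviated together within LP (r 0.12 to 0.48 for the 3 pairs of groups), which was taken as pairing there by the limit of 0.1. Within LN (-0.25 to 0.46) no pair of groups passed this limit at every number, so pairing was not taken there, though a shared source is not excluded. The 0.46 was that of replicate 3 of LN CD11b+ and LN DP DCs, the libraries that carried both Ddx3y and Xist. Between LP and LN CD103+ DCs r was 0.13 to 0.22, also over that limit. Mean Ddx3y was 65.9 CPM in those LP and 0.173 CPM in those LN libraries, so their numbers do not pair animals. The fit was tested on simulated counts with 200 changed genes. The fits were repeated with total counts or DESeq2's size factors as scaling, with no filter or one of 100 counts in 3 libraries, with DESeq2 1.42.0 as the test, on the 6 libraries compared alone, with a replicate block, and without each library.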

Additional observations from a re-analysis of the deposited data

Results flagged for a closer look

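In 6 of the 9 genes the difference between LN and LP itself differed between the subsets by the F test across them. Of all genes, 31.5% did so. The adjusted p of this test was 5.8e-08 for Cd68, 4e-07 for Adgre1, 1.7e-06 for Cd36, 6.2e-06 for Mrc1, 0.0054 for Mertk and 0.0082 for Lyz2. Adgre1 fell in LN in CD103+ and DP DCs (-2.50 and -2.59) and had 0.82 in CD11b+ DCs. Cd36 fell in CD103+ DCs (-1.64), rose in DP DCs (1.65) and had -0.33 in CD11b+ DCs. Mrc1 fell in CD11b+ DCs (-3.24), rose in CD103+ DCs (2.35) and had -1.40 in DP DCs. Mertk rested on 1 read in LP CD103+ DCs. Leaving out each library in turn, the calls of Cd68, Adgre1, Cd36 and Mrc1 held in all 18 fits, with a highest adjusted p of 4.9e-07, 4.2e-06, 1.1e-05 and 3.2e-05, whereas Mertk lost its call in 8 and Lyz2 in 14. Groups of 3 libraries are too small to test a single library as an outlier.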

How the results depend on the processing

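With each library left out in turn, the number of the 9 genes called was 4 to 5 for LN against LP in CD11b+, 6 to 9 in CD103+ and 4 to 7 in DP DCs. Of all genes, 15.2%, 35.0% and 32.1% were called there with all libraries. In LP, CD103+ against CD11b+ gave 8 to 8, DP against CD11b+ 5 to 7 and DP against CD103+ DCs 5 to 7. The same pairs in LN gave 7 to 7, 8 to 8 and 5 to 6, and the F test gave 4 to 6. With all libraries, 15.7%, 4.81% and 13.6% of all genes were called for these pairs in LP. The shares were 25.9%, 16.7% and 6.53% in LN and 31.5% for the F test. Of the 45 neighbouring pairs, 17 to 21 differed. With only the 6 libraries compared, 3 genes rather than 5 were called between tissues in CD11b+ DCs, with fewer samples in the fit. Mrc1 lost its call in DP against CD103+ DCs of LP in the same way (1.90, adjusted p = 0.039). Signs changed only for differences that were not called. Axl, DP against CD103+ DCs, was 0.024 with a replicate block and 0.058 with the block within tissue in LP, and 0.014 with total counts in LN. With 1 library left out, values ranged from -0.10 to 0.33 for Axl between tissues in CD11b+ DCs, from -0.016 to 0.48 for Cd36 in DP against CD11b+ DCs of LP, from -0.21 to 0.36 and from -0.18 to 0.12 for Axl in DP against CD103+ DCs of LP and LN, and from -0.24 to 0.58 for Mertk in the latter. The cause was not tested. Among the other fits the outcome was the same in 587, not called any more in 9, newly called in 11 and of opposite sign in 3. With 1 library left out these numbers were 1405, 33, 10 and 10. These tallies cover fold changes and leave out the F test. With 1 library left out, Mertk lost its F test call in 8 fits, Lyz2 lost it in 14 and Axl gained one in 1. The replicate block changed the calls of C1qa (-1.23) and Apoe (-0.98) between tissues in CD103+ DCs, where the mice differed in sex. Within tissue, the block changed those of Lyz2 and Mertk in the F test. It also changed that of Mrc1 in DP against CD103+ DCs of LN (-1.82, adjusted p = 0.011), where same-numbered libraries did not pass the limit for pairing. No other call changed with either block. With total counts, Axl fell under the fold limit between tissues in CD103+ and DP DCs (0.94 and 0.97). Adgre1 did so in DP against CD11b+ DCs of LP (0.98). DESeq2's size factors put Apoe under it between tissues in CD103+ DCs (-0.99). Between tissues, total counts, no filter and DESeq2 each gave calls for C1qa in CD103+ and Mrc1 in DP DCs. No filter and DESeq2 each did so for Mertk in DP against CD11b+ and CD103+ DCs of LP. Total counts moved the median of all genes by up to -0.43 (CD103+ against CD11b+ DCs of LN). Mertk, with 1 to 260 reads per group, is limited by depth.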
